A study of Mus musculus with 2 samples.

Results

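Amino acid transporters were compared between 2 cultured populations of mouse mammary carcinoma cells, with 1 Affymetrix expression array for each. The 4T1 parental line was established from a spontaneous mammary tumour that arose in a BALB/c mouse. The 4T1-3R liver metastatic cells, written 4T1-3R_L here, are descended from that line and were taken from liver metastases that arose in vivo. The labels name no gene alteration, drug treatment or time in either group, both were kept in culture, and neither how many isolates make up the 4T1-3R_L population nor how many cultures were pooled is stated. Members were the genes with at least 1 probe set annotated to exactly 1 symbol of the solute carrier families Slc1, Slc3, Slc6, Slc7, Slc36, Slc38 and Slc43. The symbol pattern found 63 genes among 18193, on 125 probe sets. Slc7a6os, Slc36a1os and Slc6a19os match the pattern but are opposite strand genes and not transporters, which leaves 60 members.

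Cells take up amino acids through membrane carriers because most amino acids cross the membrane poorly. Sodium-coupled and proton-coupled carriers load amino acids against a gradient. Exchangers then swap 1 amino acid for another, so that, for example, glutamine leaving the cell can pay for leucine entering it. Facilitators move amino acids without such a swap. Many exchangers of family Slc7 work only as a light chain joined by a disulfide bond to a heavy chain of family Slc3. In tumour cells these carriers supply leucine to the growth kinase complex mTORC1, glutamine to metabolism and cystine to glutathione synthesis. Several carrier genes are induced by the transcription factor ATF4 when amino acids are short. Not every member carries amino acids as its main substrate: the Slc6 family also holds carriers of taurine, creatine, GABA and monoamines, and Slc43a3 carries nucleobases.

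Promoter sequence is given first because several of the transporters whose values follow are known targets of ATF4. The deposited values do not measure binding. RefSeq windows of 300 bases, from 250 before to 50 after an annotated start (GRCm38.p6), were available for 17 of the 25 members measured below and for 43 of all 60. The core of the element bound by ATF4 with a C/EBP partner was searched as TGATGNAA on both strands. It was found in 4.51% of the 27025 genes in the promoter table and in 3 of the 17 measured members, Slc7a11, Slc1a4 and Slc7a7. Of all 43 members with a window it was in 4 (9.30%), which adds Slc6a21, a gene under the floor. The 250 bases upstream of Slc7a11 (chr3:50443614-50443863, minus strand) hold 2 matches in opposite orientation, beginning 66 and 47 bases before the start. The same stretch of Slc3a2 (chr19:8713898-8714147, minus strand), whose protein is the partner of the Slc7a11 protein, holds no match. For Slc1a4 (chr11:20332699-20332728, minus strand) and Slc7a7 (chr14:54418067-54418096 and chr14:54417927-54417956, minus strand) 30 bases around each match are shown. Capitals mark the matches, and each sequence reads 5′ to 3′ on the gene's strand.
Slc7a11: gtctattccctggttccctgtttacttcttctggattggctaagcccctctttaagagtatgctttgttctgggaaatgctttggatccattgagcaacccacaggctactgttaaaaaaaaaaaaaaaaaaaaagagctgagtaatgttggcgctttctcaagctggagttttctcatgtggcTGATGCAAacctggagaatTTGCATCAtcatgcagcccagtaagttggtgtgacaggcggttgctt
Slc3a2: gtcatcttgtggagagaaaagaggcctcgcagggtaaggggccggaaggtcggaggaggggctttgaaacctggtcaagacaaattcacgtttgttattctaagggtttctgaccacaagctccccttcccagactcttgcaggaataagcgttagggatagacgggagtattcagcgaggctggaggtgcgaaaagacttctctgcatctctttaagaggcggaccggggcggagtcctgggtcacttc
Slc1a4: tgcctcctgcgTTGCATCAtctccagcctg
Slc7a7, first match: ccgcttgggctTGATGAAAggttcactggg
Slc7a7, second match: gacctagaagcTGATGCAAcagcttccccg
These letters describe the windows and are not evidence of a working site. Sequence outside the windows was not searched. A window without a match, such as that of Slc3a2, does not show that the gene lacks a site. Among the 3 measured genes with a match, Slc7a11 had a lower signal in 4T1-3R_L cells, and Slc1a4 and Slc7a7 had higher signals on the probe sets used. The core of the NRF2 element, searched as TGACNNNGC, was in 5 of the 17 measured members (Slc6a9, Slc7a1, Slc7a6, Slc36a1 and Slc38a2). It was in 9 of the 43 members with a window (20.9%) and in 14.0% of all genes in the table. The E-box CACGTG, bound by MYC and TFE factors, was in 2 of the 17 measured members (Slc36a1 and Slc38a7). For the E-box the share was 9 of the 43 members with a window (20.9%) and 8.09% of all genes. In Slc36a1 an E-box match and the NRF2 match overlap.

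The values are MAS5 signals on a linear scale, as deposited. The mean signal without the 2% highest and 2% lowest probe sets was 500.003 on both arrays. Signals under 90.6, the median of all signals on both arrays, were raised to that floor before log2 was taken, and a gene counts as measured where either of its signals was at the floor or over it. The log2 ratio is 4T1-3R_L over parental. With 1 array per group there was no spread between cultures to set a difference against, and no test was run. Calling a gene at least 2-fold apart therefore describes these 2 arrays. A smaller difference is given as a value only. As a guide to technical noise, a gene's first and second probe sets differed by a median of 0.35 in log2 ratio over 5377 genes.

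Both populations carried the simple epithelial keratins of carcinoma cells, Krt8 at 18784 in parental and 21891 in 4T1-3R_L cells and Krt18 at 23738 and 20614. Of 11 epithelial markers all 11 reached the floor in the parental line and 10 did in 4T1-3R_L, with a summed signal of 94557 against 63308. In 4T1-3R_L cells 5 were lower by 2-fold or more and 0 were as much higher. The 5 were Cldn7 (5432 and 151), Krt14 (5324 and 170.9), Esrp1 (4733 and 559), Epcam (7536 and 1776) and Ehf (284 and 82.2). Hepatocytes express several of these transporters, and 0 of 18 hepatocyte markers with a probe set reached the floor on either array. Their summed signal was 738 in parental and 616 in 4T1-3R_L cells, with Alb at 11.2 and 20.8. No endothelial (0 of 8), neutrophil (0 of 5) or erythroid (0 of 2) marker reached the floor. Of 13 fibroblast and stellate cell markers 2 did, Pdgfra (676 and 2549) and Acta2 (205 and 159), with a summed signal of 1295 and 3113. Of 11 macrophage markers 2 did, Cd68 (388 and 374) and Csf1r (1026 and 88.1), with a summed signal of 1600 and 751. The 1 lymphocyte marker of 7 at the floor was Cd8a (108.4 and 105.2), beside a summed signal of 224 and 203. The part of these markers in the transporter values was not tested.

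On the probe sets used and after flooring, no measured transporter was called at least 2-fold apart between the arrays. Slc7a7 and Slc6a4 had a parental signal under the floor, so their ratios are lower bounds. Further probe sets of Slc6a6 and Slc7a4 did pass 2-fold, as given below. Of the 60 members, 25 were measured, 23 of them with both signals at the floor or over it, and 0 were at least 2-fold higher or lower. Over the 11135 measured genes of the arrays, 6.23% were higher in 4T1-3R_L cells by at least 2-fold and 4.48% lower by at least 2-fold. The transporter log2 ratios ran from -0.85 for Slc6a6 to 0.89 for Slc1a4, and 15 of the 25 (60%) lay within 0.5 of 0, against 63.2% of all measured genes. At 1.5-fold, a threshold chosen after the values were seen, 4 were higher (Slc1a4, Slc38a6, Slc7a1 and Slc7a7) and 4 lower (Slc6a6, Slc7a5, Slc1a5 and Slc3a2). Each count is 16% of the measured members, beside 15.8% of all measured genes higher and 14.0% lower at that threshold, so neither share stands apart from the background. Slc7a11 lay just outside at 1.49-fold lower. The median transporter had a log2 ratio of 0.29, with 16 positive and 9 negative values, beside a median of -0.01 and 49.5% positive over all measured genes. That median was 0.15 with the floor at the 40th percentile, and without the filter, over all 60 members and with a pseudocount of 32, it was 0.02 with 31 positive and 29 negative values. The 16 positive values at the main floor include Slc7a7 and Slc6a4, which counted as measured only through their 4T1-3R_L signal. Flooring their parental signal fixed their sign as positive, and no member was measured through the parental array alone.

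**Figure D1:**
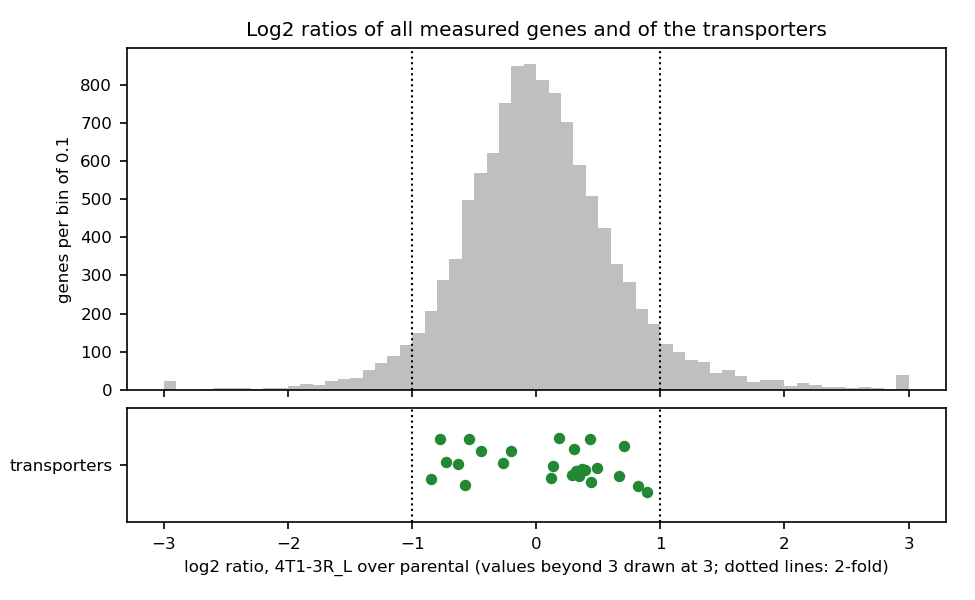
The histogram counts all 11135 measured genes by log2 ratio (4T1-3R_L over parental), and each green point below it is 1 of the 25 measured transporters, spread vertically only to separate the points. All 25 points lie between the dotted lines that mark 2-fold.

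The direction of a small ratio depends on how the arrays are scaled. When the arrays were scaled to 18 hybridisation control probe sets instead, the median of all measured genes moved by -0.54, and 4 of 28 measured transporters were positive and 24 negative. Under that scaling 7 transporters were at least 2-fold lower, namely Slc6a6, Slc7a5, Slc1a5, Slc3a2, Slc7a11, Slc7a6 and Slc38a7, and so were 20.6% of all measured genes. This scaling lowers every unfloored log2 ratio by the same amount, so positions relative to the median gene hardly change by construction. The 27 poly-A control probe sets had a median log2 ratio of 1.05, beside 0.58 for the hybridisation controls. Scaling to the poly-A controls was not run, so the hybridisation scaling is not the limit of this uncertainty. Values below are from the deposited scaling.

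**Figure D2:**
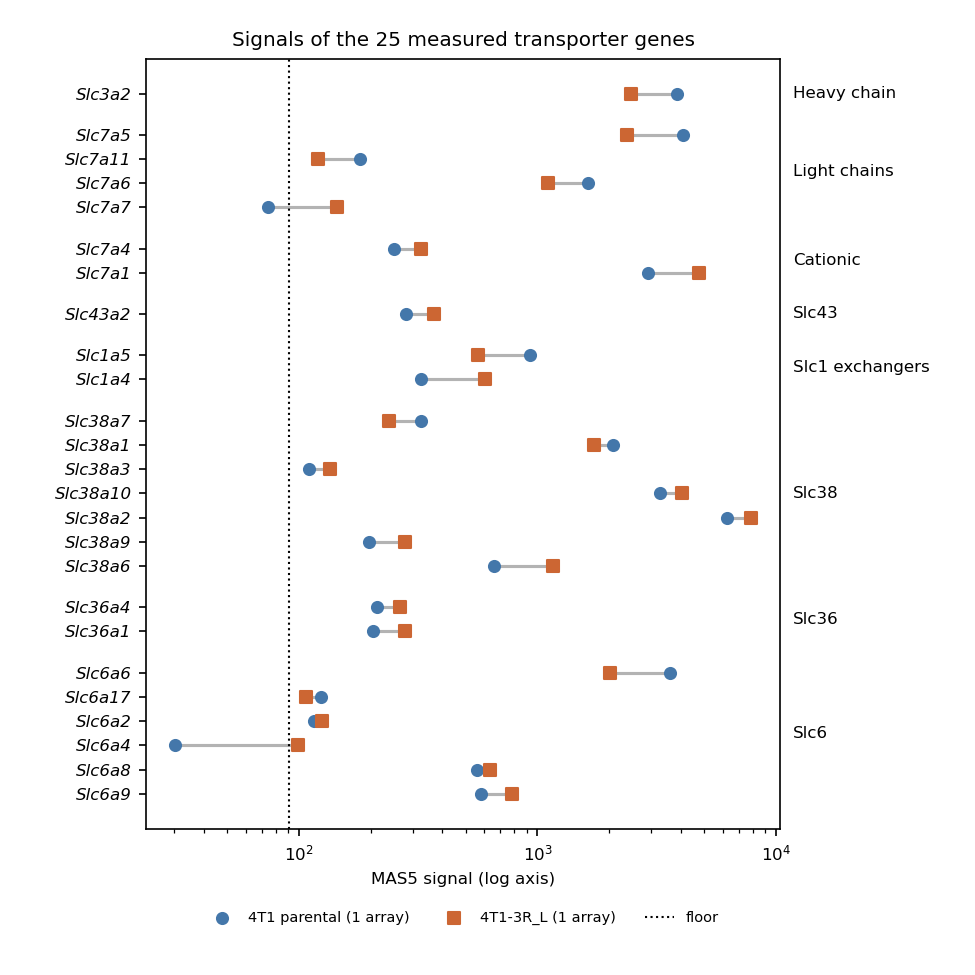
Each row is 1 measured transporter gene, with its MAS5 signal on the parental array (blue circle) and the 4T1-3R_L array (orange square) on a log axis, grouped by role, and the dotted line is the floor of 90.6. The heavy chain gene Slc3a2 and the light chain genes Slc7a5, Slc7a6 and Slc7a11 have their orange squares to the left of the blue circles, whereas both cationic carriers have them to the right.

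The heavy chain Slc3a2 and 3 of its 4 measured light chains had lower signals in 4T1-3R_L cells. Slc3a2 encodes 4F2hc, also called CD98, which brings its light chains to the cell surface. Its signal was 3828 in parental and 2474 in 4T1-3R_L cells, 1.55-fold lower (log2 ratio -0.63). Slc7a5 encodes LAT1, the main importer of leucine and other large neutral amino acids in tumour cells, and went from 4077 to 2385, 1.71-fold lower (log2 ratio -0.77). Of all measured genes, 8.28% had a ratio below that of Slc7a5 and 12.4% one below that of Slc3a2. Neither gene had a second probe set at the floor, so no second reading of the arrays exists for this pair.

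Slc7a6 encodes y+LAT2, which exchanges arginine for glutamine. The signal was 1622 in parental and 1112 in 4T1-3R_L cells, 1.46-fold lower (log2 ratio -0.54), and its second probe set read 1090 and 564, with a log2 ratio of -0.95. Both probe sets of this gene thus gave the lower signal in 4T1-3R_L cells. Slc7a11 encodes xCT, which imports cystine in exchange for glutamate and feeds glutathione synthesis. It read 180.0 and 120.8 on the parental and 4T1-3R_L arrays, a log2 ratio of -0.58. These signals are close to the floor, and raising the floor to the 60th percentile left a ratio of -0.09.

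Slc7a7 was the light chain with the opposite sign. It encodes y+LAT1, which, like Slc7a6, exports cationic amino acids in exchange for neutral ones. Its parental signal of 74.5 lay under the floor and its 4T1-3R_L signal was 144, so it was at least 1.59-fold higher, and it no longer counted as measured under the higher floor at the 60th percentile. The remaining light chain genes, Slc7a8, Slc7a9, Slc7a10, Slc7a12, Slc7a13 and Slc7a15, lay under the floor on both arrays, as did the second heavy chain gene, Slc3a1, at 46.2 and 26.9.

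Both measured carriers of the cationic branch had higher signals in 4T1-3R_L cells. Slc7a1 encodes CAT1, the common importer of arginine and lysine. It read 2907 in parental and 4742 in 4T1-3R_L cells, 1.63-fold higher (log2 ratio 0.71), but its second probe set read 2380 and 2710, with a log2 ratio of 0.19. Slc7a4, a relative whose substrate is not settled, read 252 and 325, 1.29-fold higher. On its second probe set Slc7a4 had a parental signal of 64.9, under the floor, and 195.7 on the 4T1-3R_L array, at least 2.16-fold higher. That probe set carries the suffix _s, which marks probes shared by several transcripts. Slc7a2, Slc7a3 and Slc7a14 lay under the floor on both arrays. Within Slc7 the 6 measured genes were thus split, 3 negative and 3 positive, with a family median of -0.08 relative to all measured genes. The positive values include Slc7a7, which counted as measured only through its 4T1-3R_L signal.

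Facilitators of family Slc43 were represented by Slc43a2, which encodes LAT4, a uniporter of large neutral amino acids. The gene read 281 in parental and 370 in 4T1-3R_L cells, a log2 ratio of 0.40, while the second probe set gave 0.09. Slc43a1 (75.5 and 39.6) and Slc43a3 (25.1 and 19.4) were under the floor.

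The neutral amino acid exchangers of family Slc1 had opposite signs. Slc1a5 encodes ASCT2, an exchanger that brings in glutamine, and read 935 in parental and 566 in 4T1-3R_L cells, 1.65-fold lower (log2 ratio -0.72). A weak second probe set of Slc1a5 read 93.4 and 82.6 and added little, as both values sit at the floor. Slc1a4 encodes ASCT1, which prefers serine, alanine and cysteine. Its probe set with the highest signal read 325 and 603, 1.86-fold higher (log2 ratio 0.89), the largest positive ratio of the transporters. The probe sets of Slc1a4 disagree: the second read 377 and 334 and the third 244 and 226, with log2 ratios of -0.18 and -0.11. The higher value of Slc1a4 therefore rests on 1 of 3 probe sets. That probe set ranked first through its 4T1-3R_L signal, as the second had the higher parental signal. All 5 glutamate transporters of the family, Slc1a1, Slc1a2, Slc1a3, Slc1a6 and Slc1a7, were under the floor on both arrays, with the highest signal of 80.3 for Slc1a7.

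Family Slc38, the sodium-coupled neutral amino acid transporters, had the largest share of measured genes, 7 of 9, and a family median 0.31 above all measured genes. Slc38a2 encodes SNAT2, which cells induce when amino acids are short, and had the signal 6202 in parental and 7867 in 4T1-3R_L cells, 1.27-fold higher. Slc38a1 encodes SNAT1, a glutamine importer, and read 2070 and 1718, 1.20-fold lower, with a log2 ratio of -0.27 that its second probe set matched at -0.30. Both differences are smaller than the usual gap between 2 probe sets of a gene. Slc38a6 had the largest ratio of the family, from 661 to 1164, 1.76-fold higher (log2 ratio 0.82). Its second probe set read 63.0, under the floor, and 117.1, a bound of 0.37 on the log2 scale.

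The remaining measured members of Slc38 include lysosomal carriers. Slc38a9 encodes the lysosomal carrier that reports arginine to mTORC1, and read 197 in parental and 278 in 4T1-3R_L cells, a log2 ratio of 0.49. Of its 5 further probe sets at the floor 4 were positive, from 0.07 to 0.90, and 1 was negative at -0.50, so this weak gene has no settled size. Slc38a7 encodes SNAT7, which releases glutamine from lysosomes, and read 324 and 238, 1.36-fold lower, on its single probe set at the floor. Slc38a10, a little studied member, read 3261 and 4021, a log2 ratio of 0.30, and its 5 further probe sets ran from -0.28 to 0.99. Slc38a3, a glutamine carrier of liver and kidney, was close to the floor at 110.2 and 134.5. The liver-enriched Slc38a4 (21.1 and 26.1) and the glutamine carrier Slc38a5 (5.1 and 6.2) were under it on both arrays.

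Proton-coupled carriers of family Slc36 were measured for 2 of 4 genes. Slc36a1 encodes PAT1, which moves small amino acids out of lysosomes, and read 205 in parental and 278 in 4T1-3R_L cells, a log2 ratio of 0.44. Slc36a4 encodes PAT4 and read 212 and 265, a log2 ratio of 0.32. Slc36a2 and Slc36a3 lay under the floor.

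**Figure D3:**
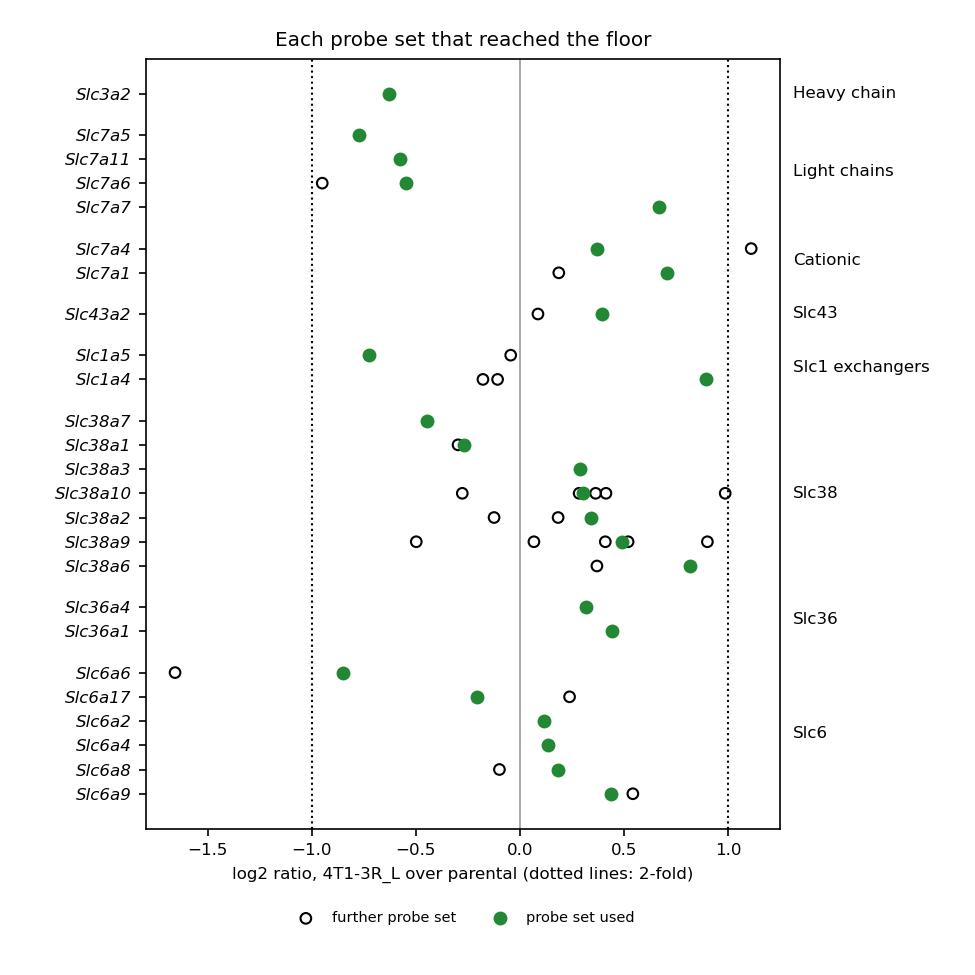
Each row is 1 measured transporter gene, each point is 1 of its probe sets that reached the floor, filled for the probe set used and open for the others, and the horizontal axis is the log2 ratio of 4T1-3R_L over parental with dotted lines at 2-fold. The open points of Slc6a6 and Slc7a4 are the only ones outside the dotted lines, and the open points of Slc1a4 lie on the other side of 0 from its filled point.

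In family Slc6 the taurine carrier Slc6a6 had the most negative ratio of all measured transporters. The signal was 3611 in parental and 2007 in 4T1-3R_L cells, 1.80-fold lower (log2 ratio -0.85), and 6.84% of all measured genes had a lower ratio. On the second probe set it read 1823 and 579, 3.15-fold lower (log2 ratio -1.66). Both probe sets of Slc6a6 gave the same direction and differed in size. With the median over its probe sets Slc6a6 was the 1 transporter at least 2-fold lower.

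The other Slc6 genes lay between -0.21 and 0.44. Slc6a9 encodes GLYT1, a glycine importer, and read 581 in parental and 786 in 4T1-3R_L cells, a log2 ratio of 0.44, with 0.54 on its second probe set. The creatine carrier Slc6a8 read 556 and 631, 1.14-fold higher, and 501 and 468 on its second probe set, 1.07-fold lower, so the sign is not settled. Slc6a17, a vesicular carrier of neutral amino acids in neurons, read 123.5 and 107.0, and its second probe set also had the opposite sign, at 0.24. The noradrenaline carrier Slc6a2 was near the floor at 115.4 and 125.1. The serotonin carrier Slc6a4 read 30.3 and 99.4, the latter barely over the floor, so its bound was at least 1.10-fold. When 32 was added to each signal instead of flooring it, the log2 ratio of Slc6a4 was 1.08, which made it the 1 transporter at least 2-fold higher under that choice. The other 14 Slc6 genes were under the floor on both arrays, among them the broad amino acid importer Slc6a14 (16.6 and 27.4), the neutral amino acid carriers Slc6a15 (28.9 and 45.1) and Slc6a19 (78.6 and 85.8) and the proline carriers Slc6a7 and Slc6a20a. They also include Slc6a20b, Slc6a3, Slc6a5, Slc6a11, Slc6a12, Slc6a13, Slc6a16, Slc6a18 and Slc6a21.

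At least 1 further probe set at the floor existed for 15 of the 25 measured transporters. The next probe set by mean signal went the same way in 12 and the opposite way in 3, namely Slc1a4, Slc6a8 and Slc6a17. Among probe sets ranked lower still, 1 each of Slc38a2 (-0.12), Slc38a9 and Slc38a10 also had the opposite sign. The median gap between the first and second readings was 0.43 in log2 ratio, which is as large as many of the differences between the cell populations. Slc3a2, Slc7a5, Slc7a7, Slc7a11, Slc36a1, Slc36a4, Slc38a3, Slc38a7, Slc6a2 and Slc6a4 had no such check. The opposite strand gene Slc7a6os, at the Slc7a6 locus, read 311 and 307 and, on its second probe set, 271 and 166.3.

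**Figure D4:**
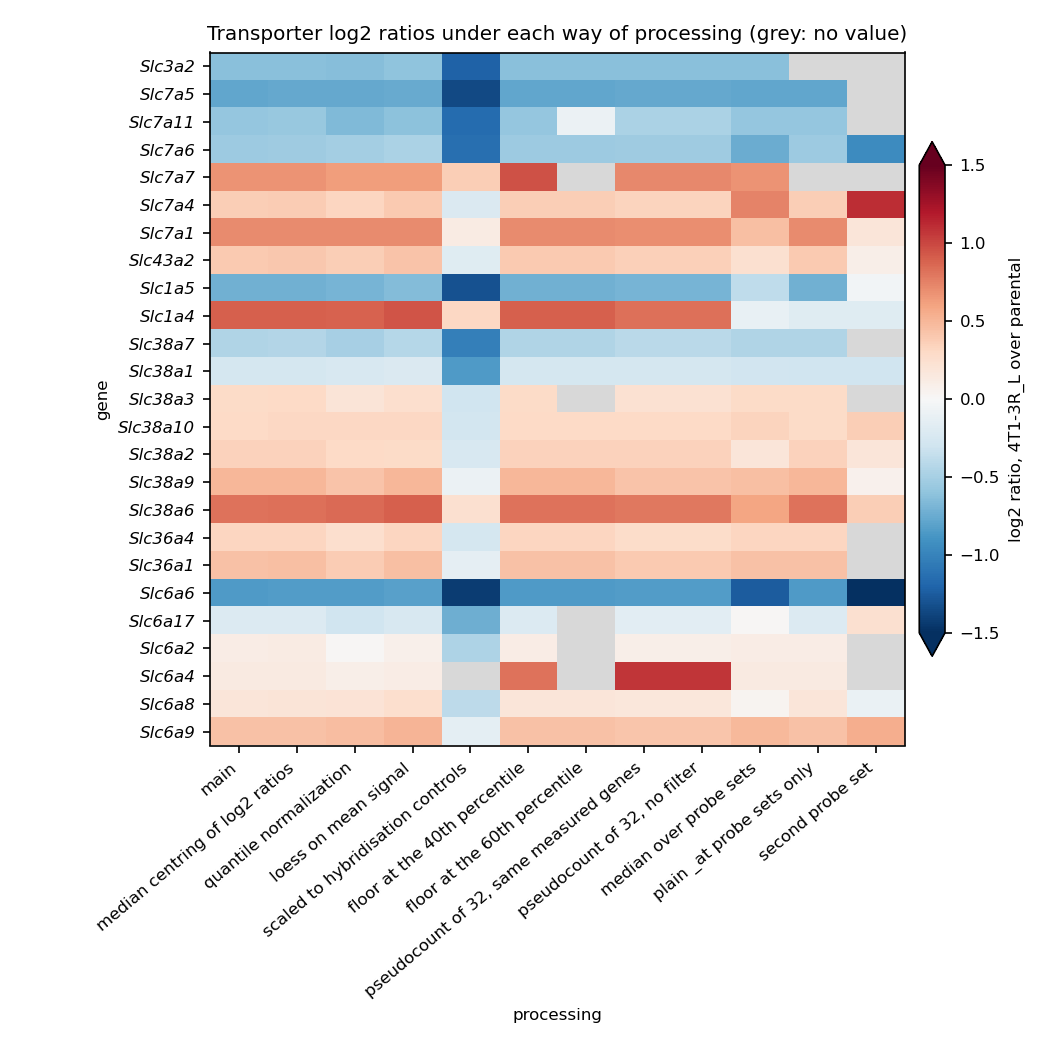
Rows are the 25 measured transporters, columns are the main processing and the 11 alternatives, and colour is the log2 ratio of 4T1-3R_L over parental, red for higher and blue for lower. Slc3a2, Slc7a5, Slc7a6, Slc7a11, Slc1a5, Slc6a6, Slc38a1 and Slc38a7 stay blue in every column that holds a value, while scaling to hybridisation controls turns most pale red cells blue.

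Genes that respond to amino acid shortage had mostly lower signals in 4T1-3R_L cells. This list holds the gene of ATF4, the kinases upstream of it and its reported targets. Of 36 measured, 26 had a ratio below 0, beside 50.5% of all measured genes. At least 2-fold lower were 3 of them, beside 4.48% of all measured genes, and 0 were as much higher, beside 6.23%. The list had a median of -0.28 relative to all measured genes, between -0.33 and -0.25 over the processing alternatives. The stress protein gene Nupr1 was 2.35-fold lower (4936 and 2101), and its second probe set gave a log2 ratio of -1.28. Ddit4, a brake on mTORC1, was 2.13-fold lower (10496 and 4923), as was Psat1, an enzyme of serine synthesis (8569 and 4027, also 2.13-fold), but its second probe set gave a log2 ratio of -0.34. The mitochondrial folate enzyme Mthfd2 was 1.90-fold lower and the repressor Jdp2 1.66-fold higher. Atf4 itself and the asparagine synthetase gene Asns were named after their values were seen: Atf4 read 4409 and 3680, which is -0.26 on the log2 scale against 0.37 for a second probe set, and Asns had log2 ratios of -0.50 and -0.77 on its probe sets. Atf4 thus had no settled sign, and much of the control of its protein is known to be translational, which these arrays do not measure.

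The list of mTORC1 and its amino acid sensors had 35 measured genes, 3 at least 2-fold higher and 1 lower by as much, shares near the 6.23% and 4.48% of all measured genes. Its median lay 0.11 above all measured genes, and -0.11 on second probe sets. The sestrin Sesn3, a member of the family that restrains mTORC1, was 2.75-fold higher (1495 and 4118), and its second probe set gave a log2 ratio of 0.81. Castor2, a relative of the arginine sensor Castor1, was 2.10-fold higher, and 0.94 on the log2 scale by its second probe set. The kinase gene Mtor was 2.11-fold higher (1142 and 2408) on the probe set used, but its second probe set read 259.4 and 258.6. The RagA GTPase gene Rraga, which anchors mTORC1 to lysosomes, was 2.04-fold lower (925 and 453), and the complex subunit Kptn was at least 1.87-fold higher from a parental signal under the floor. Scaled to hybridisation controls, Sesn3 (log2 ratio 0.88), Castor2 (0.49) and Mtor (0.50) came under 2-fold, and Rraga did with loess (-0.96).

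Among genes of amino acid use 0 of 21 measured were at least 2-fold apart, and the median was -0.15 relative to all measured genes. The aspartate transaminase Got1 was 1.90-fold lower (1878 and 988), the proline oxidase Prodh 1.85-fold lower and the spermidine synthase Srm 1.72-fold lower. Odc1, which turns ornithine into putrescine, was 1.87-fold higher (11872 and 22202), and its second probe set gave a log2 ratio of 0.69, and the arginase Arg2 was 1.57-fold higher. The second arginase gene, Arg1, went from 119.7 to 23.7, under the floor, and was at least 1.32-fold lower.

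Other amino acid and peptide carriers had 18 measured genes, 1 at least 2-fold higher and 1 lower by as much, shares near the 6.23% and 4.48% of all measured genes. The mitochondrial ornithine carrier Slc25a15 was 2.81-fold lower (891 and 318). Slc66a1, which exports cationic amino acids from lysosomes, was at least 2.02-fold higher, from a parental signal of 69.1 under the floor, but its log2 ratio was 0.12 with the floor at the 60th percentile and 0.72 when scaled to hybridisation controls. Slc25a44, the mitochondrial carrier of branched-chain amino acids, was 1.96-fold higher, the glycine carrier Slc25a38 1.76-fold lower, and the lysosomal peptide carrier Slc15a3 at least 1.77-fold lower from 160.8 to 3.8. The list median was -0.08 in relation to all measured genes, and 0.63 over the few genes of the list with a second probe set at the floor.

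Partners and regulators of carrier trafficking ranged in log2 ratio from -1.36 to 2.54. There were 21 measured, 3 of them at least 2-fold higher (6.23% over all measured genes) and 2 lower by as much (4.48%). The alpha-arrestins Txnip and Arrdc3, a class of proteins that draws carriers and receptors away from the cell surface, were 5.82-fold (1108 and 6447) and 3.40-fold (307 and 1043) higher, and Txnip gave 2.34 (log2) on a second probe set. The other alpha-arrestin gene on the list, Arrdc1, had log2 ratios of -0.56 and -0.51 on its probe sets. Cd44, whose variant forms stabilise xCT at the surface, was 2.35-fold higher (6972 and 16399), with log2 ratios of 0.91 for its second probe set and 0.65 when scaled to hybridisation controls. Variant forms of Cd44 were not read apart from its other forms. The kinase Sgk3, which promotes carrier insertion, was 2.57-fold lower (955 and 371), and its second probe set gave a log2 ratio of -1.21. Myc, a known activator of several carrier genes, was 2.16-fold lower (3799 and 1760). The median of this list was 0.01 relative to all measured genes.

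**Figure D5:**
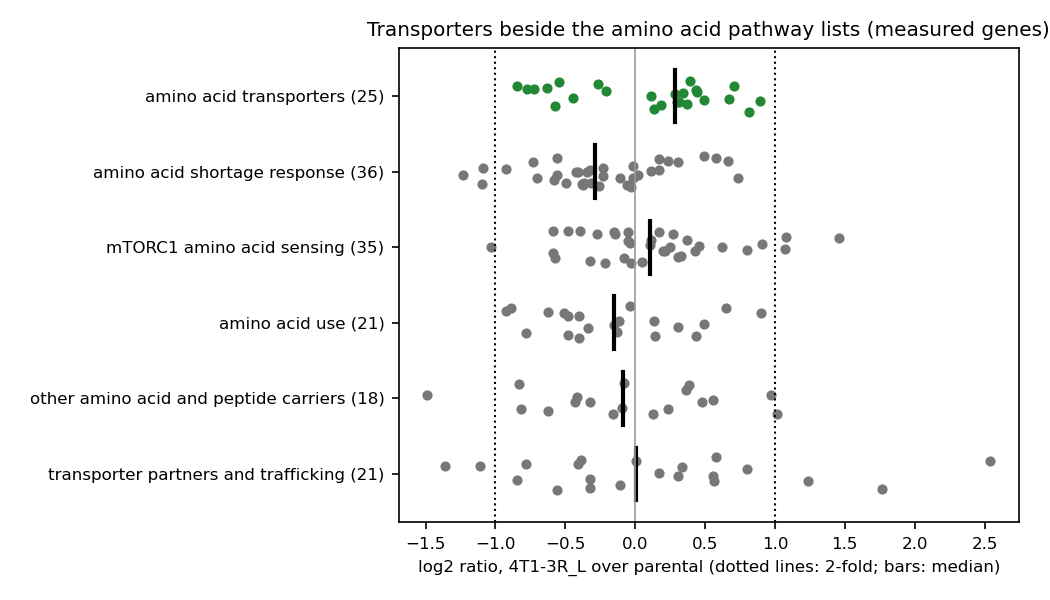
Each point is 1 measured gene, rows are the 25 transporters (green) and the 5 amino acid pathway lists (grey, number measured in brackets), black bars are medians, and the horizontal axis is the log2 ratio of 4T1-3R_L over parental with dotted lines at 2-fold. The transporters and the genes of amino acid use stay between the dotted lines, whereas Txnip lies farthest right at 2.54.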

How the data were processed

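Total RNA of 4T1 parental and 4T1-3R_L cells was hybridised to 1 Affymetrix array each. The authors deposited MAS5 intensity values, on a linear scale, for 45101 probe sets, per the submitters' processing notes. Neither the MAS5 version nor its scaling target is given in the sources used here, and no detection calls were used. MAS5 subtracts mismatch probe signal, which makes low values noisy, and no depth exists for arrays.

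The platform annotation named 34958 probe sets with a single symbol. Of a gene's probe sets the one with the highest mean of floored log2 signals was used. Ratios, counts, medians and motif matches were computed with Python 3.11.15, pandas 2.3.3 and statsmodels 0.14.6. The procedure was tested on simulated data, with changes larger than those of the transporters on the probe sets used and in genes well over the floor. That test does not cover small ratios or signals near the floor. The alternatives were median centring, quantile normalization, loess, scaling to hybridisation controls, floors at the 40th and 60th percentile, a pseudocount of 32 with and without the filter, and other choices of probe set. A threshold of 1.5-fold and the pathway lists under these alternatives were added after the values were seen. Transporters are all accounted for by name, and of each pathway list the 5 genes with the largest log2 ratio in size are named. The members and lists were chosen with earlier results of these data known. Protein identity was planned and not run, as no protein sequences were used here.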

Additional observations from a re-analysis of the deposited data

How the results depend on the processing

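With 1 array per group no replicate could be left out, and no paired analysis was possible because each group has a single sample. An alternative value counts as moved when it differs by more than 0.35, the median gap between probe sets. The count of transporters at least 2-fold higher, 0, was 1 with a pseudocount of 32, with or without the filter on low genes (Slc6a4), 1 on second probe sets (Slc7a4) and 4 at 1.5-fold. The count at least 2-fold lower, 0, was 7 when scaled to hybridisation controls, 1 with the median over probe sets and 1 on second probe sets (both Slc6a6), and 4 at 1.5-fold. The Slc7 median relative to all measured genes, -0.08, was -0.52 with plain _at probe sets only, where Slc7a7 has no value, and its sign turned at 0.10 with the floor lowered to the 40th percentile and 0.22 on second probe sets. Relative to all measured genes, the Slc6, Slc38 and all-transporter medians stayed positive and within 0.35 of the main value. Their main values, 0.13, 0.31 and 0.29, are themselves smaller than 0.35, so staying within it does not show that they are stable. The all-transporter median was 0.02 with a pseudocount of 32 and no filter. Not set against all measured genes, the transporter median was -0.25 when scaled to hybridisation controls. Of 257 single transporter values under the 11 alternatives, 217 stayed within 0.35, and 12 transporters kept 1 sign throughout, where they had a value, or 22 with the hybridisation scaling left out. Many of these values could hardly move. Median centring shifts every ratio by the same small amount, and a changed floor leaves a ratio of unfloored signals as it was. The pseudocount gives each measured gene the same value with and without the filter. A gene with a single probe set at the floor keeps its value under the median over probe sets. The count of 217 is thus partly fixed in advance. Mtor reversed on its second probe set, at -0.0045 (log2). Signals near the floor limit Slc7a11, Slc7a7, Slc6a4, Slc6a2, Slc6a17 and Slc38a3 most.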
